A study of Glycine max with 54 samples.

Results

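The comparison described here sets infested leaves of the soybean genotype P203 at 96 h after infestation (HAI) against infested leaves of the same genotype at 48 HAI. Its members are the 3 libraries labelled as infested P203 at each of those times, 6 of the 54 RNA-seq libraries of the series, and they were chosen by genotype, treatment and time alone. P203 is an antixenotic soybean (Glycine max), that is, a plant that aphids avoid. The series also holds the susceptible Dongnong47 and the antibiotic P746, a plant on which aphids do poorly. Once the first trifoliolate leaf had opened, every leaflet of an infested seedling received 6 soybean aphids (Aphis glycines) under a cage, mock seedlings carried the cage without aphids, and the caged leaf area was harvested. The 3 libraries of a group came from independent samples. Neither the age of the seedlings in days nor the number of seedlings behind each sample is given in the sources used here.

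Leaves under attack by sap-feeding insects are known to call on the jasmonic acid (JA) and salicylic acid (SA) pathways. JA is made from membrane lipids by lipoxygenases (LOX), allene oxide synthase (AOS) and allene oxide cyclase (AOC), and JAZ proteins hold JA-responsive transcription back until the hormone removes them. SA is made through isochorismate synthase (ICS) or phenylalanine ammonia-lyase (PAL), and NPR1, EDS1 and PAD4 carry its signal. Leaves also run a circadian clock, in which MYB-related factors of the LHY/CCA1 group peak around dawn in Arabidopsis, and CONSTANS and other B-box zinc finger proteins link the clock and light to flowering and growth.

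Values were estimated counts per gene, which were rounded and scaled by the trimmed mean of M values (TMM). They are given as CPM, that is, relative to the library's scaled total over the tested genes only. Genes that a library did not list entered it as 0. Totals per library over all loci ran from 16596469 to 19451241 counts. Of 53971 loci, the 32958 genes whose identifiers place them on chromosomes 1 to 13 were used, because abundant genes of chromosomes 14 to 20 had no value in 1.51% to 31.2% of cases per library, against 0.0425% to 0.17% on chromosomes 1 to 13. After a filter on low counts, 22604 genes were tested. Between 83.8% and 93.8% of marker genes separated each of the 6 libraries from the other genotypes on the P203 side. The label leaf was not checked against leaf markers, because the identifiers could not be matched to gene names.

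The libraries did not group by time. Over 17387 genes with a mean of at least 5 CPM, Spearman's rho between 2 libraries of the same time was 0.73 to 0.883 (median 0.806, 6 pairs), and between libraries of different times 0.634 to 0.905 (median 0.802, 9 pairs). These are correlations across genes, which are not independent replicates. Replicate 1 at 48 HAI was most like replicate 1 at 96 HAI (0.905), and replicate 2 at 48 HAI was most like replicate 3 at 96 HAI (0.89). Replicate 1 and replicate 2 at 48 HAI, by contrast, shared a rho of 0.73. The spread within each time was therefore as wide as the distance between the times, and the results below rest on 3 libraries per group.

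Few genes separated the times beyond that spread. A gene was called when the adjusted p of edgeR's quasi-likelihood test was under 0.05 (Benjamini-Hochberg over all 22604 genes) and its log2 fold change was at least 1 in size. Only 4 genes were called, 0.0177% of those tested, of which 2 rose (0.00885%) and 2 fell (0.00885%). At an unadjusted p under 0.05 there were 1836 genes (8.12%), with 759 higher at 96 HAI (3.36%) and 1077 lower (4.76%). DESeq2 called 608 of the same genes (2.69%), 189 higher (0.836%) and 419 lower (1.85%), and all 4 edgeR calls were among them. With any one of the 6 libraries left out, each of them in turn, edgeR called 0 genes (1067 to 2790 at an unadjusted p under 0.05).

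Of the 2 called genes that rose, the larger rise was that of GLYMA12G06406, on chromosome 12, which holds a Myb-like DNA-binding domain and is classed as MYB-related. It stood at 0.622, 1.03 and 0.648 CPM at 48 HAI and at 41.1, 60.4 and 41.4 CPM at 96 HAI. The groups were far apart, and the log2 fold change was 5.93 ± 0.36 (SE, n = 3 per group; edgeR adjusted p = 0.0191). In mock leaves the gene rose as well, from 0.524, 1.41 and 0.777 CPM to 25.3, 24.9 and 32.1 CPM, a log2 fold change of 4.91 ± 0.43 (edgeR adjusted p = 0.0105). The difference between the changes in infested and mock leaves was 1.01 ± 0.50 on the log2 scale and was not called (edgeR adjusted p = 0.386).

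GLYMA09G26440, on chromosome 9, has no name or class in the sources used here. Its levels were 0.932, 1.09 and 0.833 CPM at 48 HAI and 29.3, 31.3 and 42.6 CPM at 96 HAI. All 3 libraries of 96 HAI lay far above those of 48 HAI, and the gene rose by a log2 fold change of 5.16 ± 0.30 (SE, n = 3 per group; edgeR adjusted p = 0.0191). The rise in mock leaves was nearly as large, 5.0 ± 0.52 (edgeR adjusted p = 0.0153).

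GLYMA13G32970, on chromosome 13 and likewise unnamed, fell. It was at 27.2, 34.5 and 36.4 CPM at 48 HAI and at 3.26, 2.72 and 3.08 CPM at 96 HAI, with tight groups at both times. The log2 fold change was -3.43 ± 0.25 (SE, n = 3 per group; edgeR adjusted p = 0.0304), beside -2.85 ± 0.35 in mock leaves (edgeR adjusted p = 0.019).

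The remaining called gene behaved otherwise in mock leaves. GLYMA11G35750, an unnamed gene on chromosome 11, stood at 140, 154 and 140 CPM at 48 HAI and at 16.3, 13.8 and 16.9 CPM at 96 HAI in infested leaves. It fell by a log2 fold change of -3.20 ± 0.22 (SE, n = 3 per group; edgeR adjusted p = 0.0266). The mock libraries held 73.3, 102 and 73 CPM at 48 HAI and 75.6, 80.1 and 88.1 CPM at 96 HAI, and their groups overlapped (log2 fold change -0.03 ± 0.23, edgeR adjusted p = 0.957). The change over time differed between infested and mock leaves by -3.18 ± 0.28 on the log2 scale (edgeR adjusted p = 0.0015, 12 libraries).

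**Figure D1:**
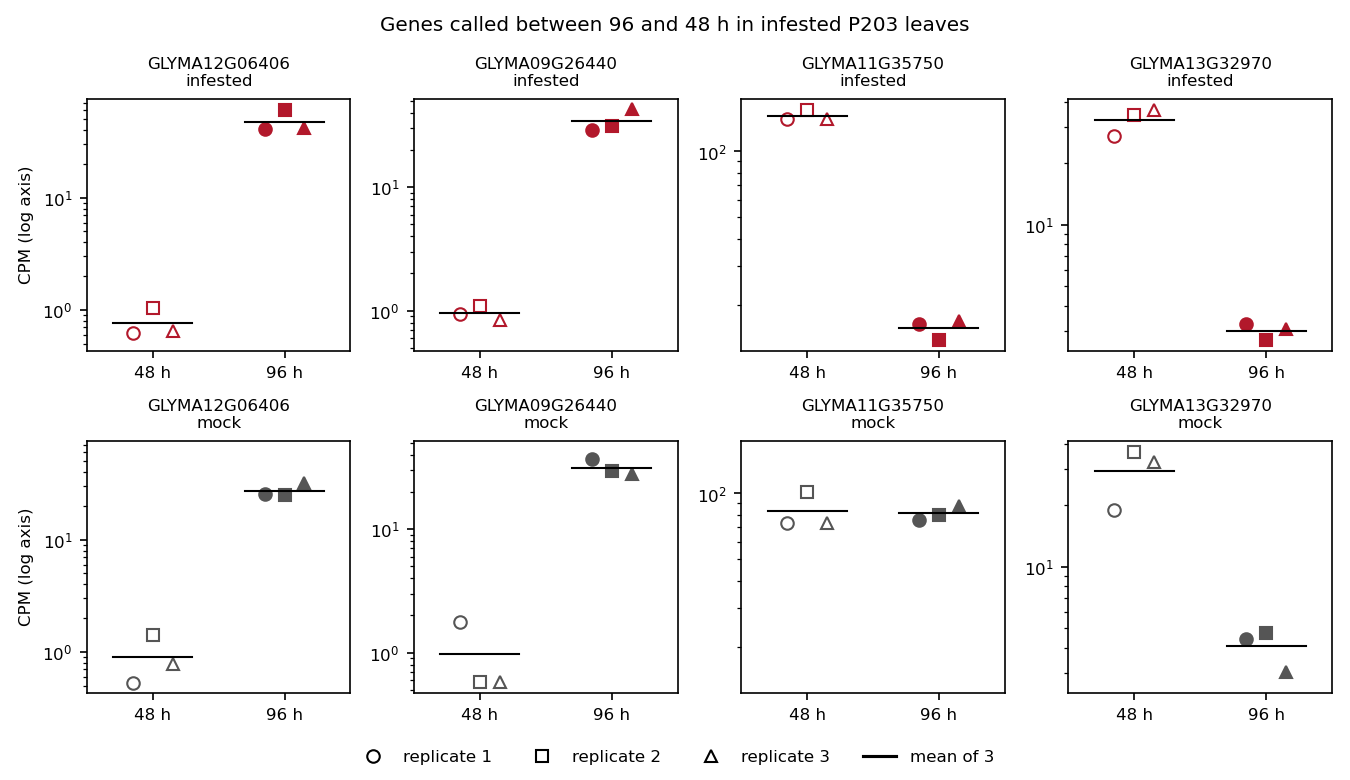
Normalised level (CPM, log axis) of the 4 genes called between 96 and 48 HAI in infested P203 leaves, with infested libraries above and mock libraries below; each point is 1 library, lines are means of 3, and infested and mock values were scaled in separate fits. GLYMA12G06406, GLYMA09G26440 and GLYMA13G32970 moved the same way in both treatments, whereas GLYMA11G35750 fell only in the infested libraries, from 140 to 154 CPM down to 13.8 to 16.9 CPM.

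Genes of the circadian clock and of the CONSTANS group had some of the widest differences between the times, although none of the 5 tested passed the edgeR threshold. In each of the 5, the libraries of the times did not overlap, with 1 higher and 4 lower at 96 HAI. Over all tested genes, the groups were apart in 14% (6.74% higher, 7.26% lower). The median log2 fold change of the 5 genes was -2.60, against -0.01 over all tested genes, and DESeq2 called 1 of them higher and 3 lower. This list was drawn from transcription factor (TF) genes that the study had chosen on the same libraries, so its direction is not independent evidence.

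LCL2 (GLYMA03G42260, chromosome 3) is annotated as a late elongated hypocotyl and circadian clock associated-like MYB-related factor, a group that acts as a morning repressor in the Arabidopsis clock. It was at 310, 241 and 352 CPM at 48 HAI and at 13.8, 11.2 and 2.56 CPM at 96 HAI. Every 96 HAI library was low, replicate 3 the lowest. The log2 fold change was -5.03 ± 0.69 (SE, n = 3 per group), with an edgeR adjusted p of 0.0877 and a DESeq2 adjusted p of 3.2e-13. In mock leaves LCL2 fell, from 140, 314 and 177 CPM to 22.2, 28.7 and 42.6 CPM (log2 fold change -2.75 ± 0.43, edgeR adjusted p = 0.0312). The difference between infested and mock changes, -2.27 ± 0.77, was not called (edgeR adjusted p = 0.233).

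GLYMA08G28370 on chromosome 8 is annotated as a CONSTANS protein, after the Arabidopsis regulator of flowering by day length. The study files it in the double B-box (DBB) class. It was at 199, 125 and 313 CPM at 48 HAI and at 26.2, 23 and 4.83 CPM at 96 HAI. The groups were apart, with replicate 3 again the lowest at 96 HAI. Its log2 fold change was -3.56 ± 0.72 (SE, n = 3 per group; edgeR adjusted p = 0.198), and that in mock leaves was -2.69 ± 0.61. The CONSTANS-like gene GLYMA07G10161 on chromosome 7 was at 950, 817 and 1840 CPM at 48 HAI and at 289, 175 and 130 CPM at 96 HAI. Its log2 fold change was -2.60 ± 0.52 (edgeR adjusted p = 0.198). In mock leaves this gene fell (log2 fold change -3.96 ± 0.56, edgeR adjusted p = 0.026). The CO-like gene GLYMA11G13570 on chromosome 11 was at 164, 125 and 199 CPM and then at 99.3, 62 and 49.1 CPM, a smaller difference (-1.21 ± 0.35, edgeR adjusted p = 0.422).

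A further CONSTANS-like gene, GLYMA10G42090 on chromosome 10, stood the other way. It was at 3.96, 2.25 and 3.24 CPM at 48 HAI and at 75.6, 72.7 and 33 CPM at 96 HAI. All 96 HAI libraries were high, replicate 3 the least so. The log2 fold change was 4.26 ± 0.44 (SE, n = 3 per group; edgeR adjusted p = 0.0629, DESeq2 adjusted p = 2.76e-16). It rose in mock leaves by 3.10 ± 0.45 on the log2 scale (edgeR adjusted p = 0.0273), and the difference between the changes, 1.17 ± 0.61, was not called (edgeR adjusted p = 0.409).

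**Figure D2:**
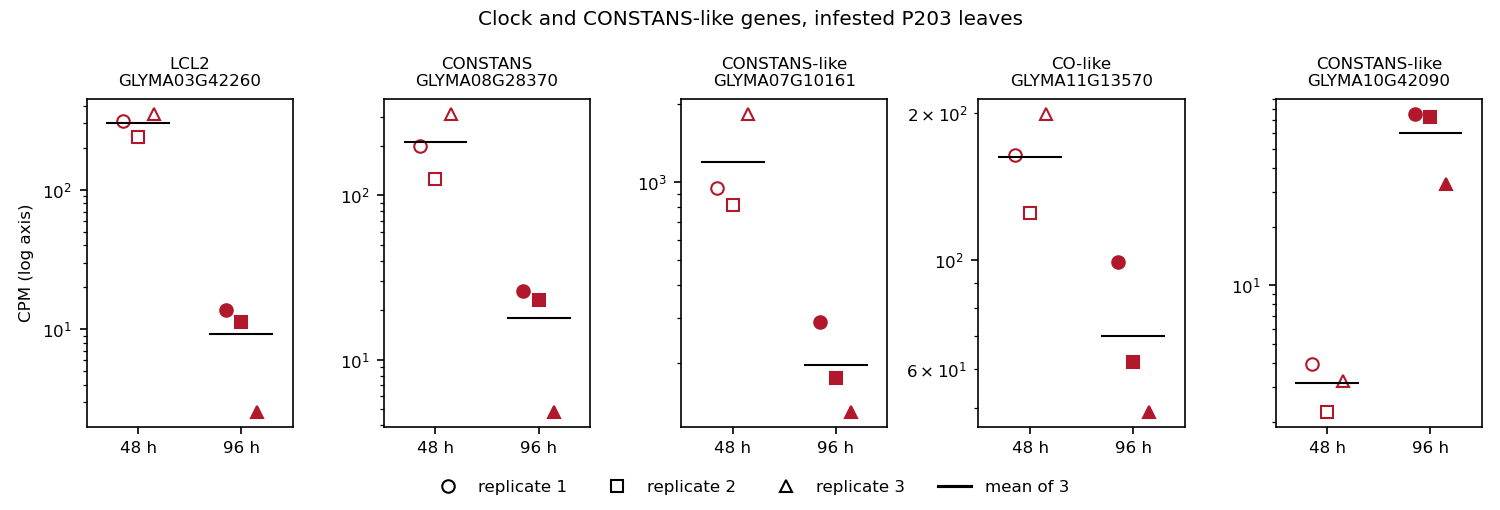
Normalised level (CPM, log axis) of the 5 clock and CONSTANS-like genes in the 6 infested P203 libraries at 48 and 96 HAI; points are libraries, symbols replicates and lines means of 3. LCL2 and the genes GLYMA08G28370, GLYMA07G10161 and GLYMA11G13570 were lower in every 96 HAI library, and GLYMA10G42090 was higher in each of them.

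Across the TF genes listed by the study, 546 were tested and 1 was called, the MYB-related GLYMA12G06406. The groups did not overlap for 39 genes higher and 57 genes lower at 96 HAI, and the median log2 fold change was 0. Over all tested genes, 6.74% lay higher and 7.26% lower in this way. The study chose the TF genes on the same libraries. The number of genes apart between the times varied from family to family. In the C2C2 zinc finger family, 19 of 45 genes lay lower at 96 HAI in every library (42.2%) and 4 lay higher (8.89%). The median log2 fold change there was -0.49, and DESeq2 called 1 higher and 13 lower. In the MYB-related family, which holds the LHY/CCA1 group, 11 of 35 lay lower (31.4%) and 7 higher (20%). Its median was -0.31, and DESeq2 called 2 higher and 8 lower. Heat shock factors (HSF) had 2 of 12 higher (16.7%) and 0 lower. In the WRKY family, a large group of defence regulators, 4 of 52 were higher (7.69%, against 6.74% over all tested genes) and 0 lower, a share that depended on the libraries used, as described for the defence genes. NAC factors had 0 of 30 higher and 1 lower (3.33%), and MYB factors 3 of 36 higher (8.33%) and 1 lower (2.78%). AP2/ERF factors, among them regulators that respond to ethylene, had 1 of 63 higher (1.59%) and 7 lower (11.1%). Of bHLH factors, 2 of 51 were higher (3.92%) and 4 lower (7.84%). The NAC, MYB and bHLH shares lay near or below those over all tested genes. By edgeR, 0 genes of the C2C2, HSF, WRKY, NAC, MYB, AP2/ERF and bHLH families were called. The shares depended on the scaling. When libraries were scaled by their total counts, AP2/ERF factors had 6 higher (9.52%) and 3 lower (4.76%). MYB-related factors then had 8 higher and 10 lower (median -0.02), and C2C2 genes 6 higher and 17 lower (median -0.18). Over all tested genes, 16.1% were higher and 3.41% lower under that scaling.

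The C2C2 family was then divided by the domain the study lists for each gene, a division made after its values had been seen. Of 14 C2C2 genes with a B-box zinc finger, the domain of CONSTANS, 10 were lower at 96 HAI in every library (71.4%) and 1 was higher, with a median log2 fold change of -2.62, and DESeq2 called 8 of the 14, all lower. Related genes that the study files outside C2C2 are not among the 14. Of 4 genes of the DBB class, which holds GLYMA08G28370, 2 were higher and 2 lower. Of 3 CO-like genes 1 was higher and 2 lower. Of 17 genes with a Dof domain, a plant zinc finger found in factors that repress CONSTANS in Arabidopsis, 7 were lower and 3 higher (median -0.32). GATA zinc finger genes gave 1 lower of 9, and YABBY genes 1 lower of 5. Scaling by total counts moved the shares over all tested genes to 16.1% higher and 3.41% lower, and left the B-box genes at 1 higher and 10 lower (median -2.31). Without replicate 2 of 48 HAI and replicate 3 of 96 HAI, the libraries that stood high for defence genes, 11 of 13 B-box genes were lower, over a background of 20% lower and 21% higher. In mock leaves 6 of 14 B-box genes were lower in every library and 2 higher (median -1.07), beside a background there of 17.6% lower and 17.2% higher, and edgeR called 1 higher and 4 lower. The same B-box genes had a median of -1.26 in infested Dongnong47 and of 0.44 in infested P746, where 13 were tested in each.

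Among the B-box genes, GLYMA01G37370 on chromosome 1 was at 154, 103 and 138 CPM at 48 HAI and at 19.3, 8.79 and 6.28 CPM at 96 HAI (log2 fold change -3.52 ± 0.49, edgeR adjusted p = 0.0882). GLYMA12G11230 on chromosome 12 was at 104, 92.8 and 185 CPM and then at 14.8, 10.5 and 10.7 CPM (-3.40 ± 0.37, edgeR adjusted p = 0.0652). Their 96 HAI libraries were low throughout. Chosen after the values were seen, GLYMA13G41980 held 262, 282 and 330 CPM at 48 HAI and 71, 42.4 and 25.5 CPM at 96 HAI (-2.65 ± 0.43), and GLYMA06G01140, the B-box gene that lay higher, held 3.34, 0.129 and 0.833 CPM and then 10.6, 3.98 and 3.78 CPM (2.09 ± 1.07, edgeR adjusted p = 0.709). The 14 log2 fold changes ran from -3.52 to 2.09.

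Other TF genes with the smallest p in the lower direction had levels that did not overlap between the times and did not pass the adjusted threshold. The MYB-related GLYMA09G29800 held 594, 635 and 881 CPM at 48 HAI and 76.3, 62.8 and 76.6 CPM at 96 HAI (log2 fold change -3.29 ± 0.33, edgeR adjusted p = 0.0629; mock -1.57 ± 0.39). GLYMA13G19910, of the same family, held 58.4, 69.6 and 78.1 CPM and then 8.74, 4.47 and 4.66 CPM (-3.53 ± 0.35, edgeR adjusted p = 0.0629), and it fell in mock leaves (-2.85 ± 0.39, edgeR adjusted p = 0.0239). A further MYB-related gene differed between the treatments in its values. GLYMA01G04530, described as MYB/HD-like, was at 130, 104 and 183 CPM at 48 HAI and at 13.8, 16.3 and 13 CPM at 96 HAI (-3.28 ± 0.30, edgeR adjusted p = 0.0584). Its mock levels were 57.7, 59 and 69.2 CPM and then 26.3, 46.9 and 121 CPM, so that the mock groups overlapped (0.06 ± 0.54), while the difference between the changes, -3.34 ± 0.67, was not called (edgeR adjusted p = 0.0701). The C2C2 gene GLYMA06G20950, which holds a Dof domain, and the C3H zinc finger gene GLYMA10G31370 had log2 fold changes of -2.89 ± 0.40 (edgeR adjusted p = 0.0882) and -1.92 ± 0.25 (edgeR adjusted p = 0.083).

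TF genes with the smallest p in the higher direction came from several families. GLYMA13G11592, a gene of the DBB class, held 2.33, 6.63 and 2.22 CPM at 48 HAI and 28.5, 33.2 and 29.4 CPM at 96 HAI (log2 fold change 3.02 ± 0.50, edgeR adjusted p = 0.129), and it rose in mock leaves (2.24 ± 0.25, edgeR adjusted p = 0.0161). The heat shock factor GLYMA03G34900 held 8.55, 4.89 and 10.2 CPM and then 39.8, 31.8 and 30.7 CPM (2.12 ± 0.33, edgeR adjusted p = 0.122), and it too rose in mock leaves (1.91 ± 0.22, edgeR adjusted p = 0.017). Both genes had every 96 HAI library above every 48 HAI library. A second heat shock factor, GLYMA08G05220, had a log2 fold change of 2.02 ± 0.35 (edgeR adjusted p = 0.138). The WRKY gene GLYMA02G12490 held 37, 33.1 and 25.4 CPM and then 97.3, 100 and 112 CPM (1.70 ± 0.23, edgeR adjusted p = 0.083), beside 0.32 ± 0.34 in mock leaves. The bHLH gene GLYMA05G07490 (1.62 ± 0.29, edgeR adjusted p = 0.15) and the TCP gene GLYMA12G33640 (1.29 ± 0.19, edgeR adjusted p = 0.0962) completed the set.

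**Figure D3:**
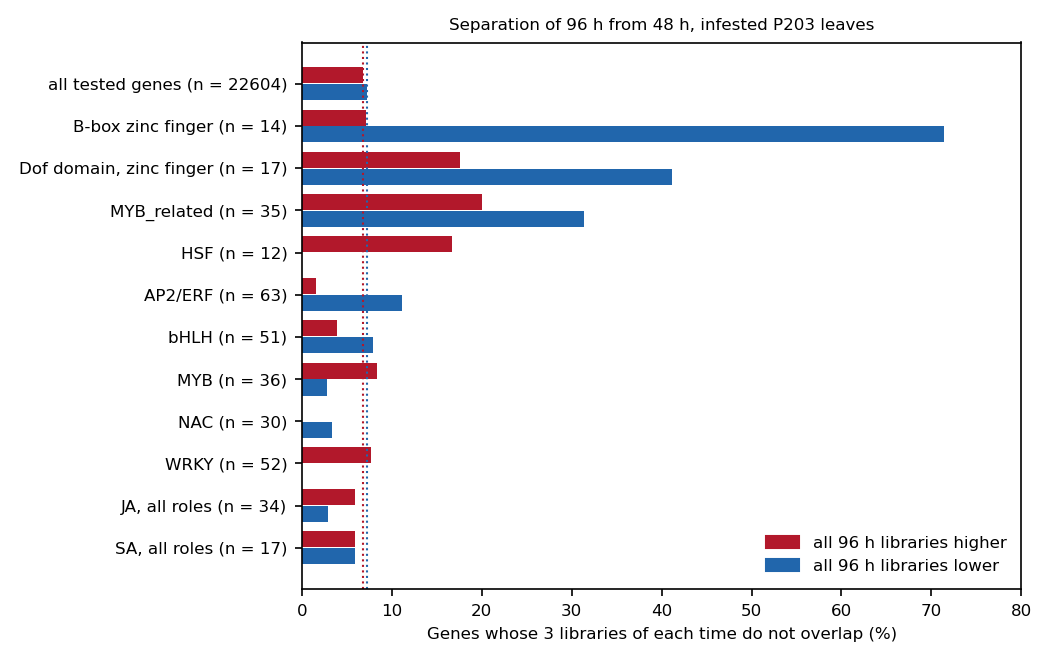
Share of tested genes (%) in each list whose 3 libraries of 96 HAI all lay above (red) or all below (blue) the 3 libraries of 48 HAI in infested P203 leaves; dotted lines mark the shares over all 22604 tested genes, 6.74% and 7.26%. The 14 C2C2 genes with a B-box have 71.4% lower, and the WRKY list has 7.69% higher and the JA list 5.88%, all in the fit of 6 libraries; the DBB and CO-like classes are not drawn.

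JA genes showed no difference between the times that passed the edgeR test. Of 34 JA genes tested, edgeR called 0 (2 at an unadjusted p under 0.05) and DESeq2 called 1 higher and 1 lower, with 2 genes higher and 1 lower in every library. The median log2 fold change was -0.08, and 0.17 when libraries were scaled by their total counts, so that its sign depended on the scaling. The study chose the JA and SA genes on these libraries. In biosynthesis, the 3 genes with the highest mean level that were not called were lipoxygenases. LOX1 (GLYMA13G42330) was at 1530, 1770 and 95.2 CPM at 48 HAI and at 1570, 753 and 1970 CPM at 96 HAI (log2 fold change 0.34 ± 0.99, edgeR adjusted p = 0.963). LOX1 (GLYMA07G00900) was at 1410, 961 and 61.5 CPM and then at 1020, 434 and 657 CPM (-0.20 ± 0.99, edgeR adjusted p = 0.976). For both, replicate 3 at 48 HAI was far below the other libraries. LOX2 (GLYMA02G26160) was at 5.28, 771 and 220 CPM and then at 6.94, 86.5 and 550 CPM (-0.63 ± 1.77, edgeR adjusted p = 0.962), a wide spread within each time. Several of these lipoxygenases are close copies, and how reads were shared between such copies is not given in the sources used here.

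Chosen after their values were seen, the JA genes whose libraries were apart were AOS, AOC4 and FAD8. AOS (GLYMA11G13070) held 62.5, 55.8 and 30.1 CPM at 48 HAI and 131, 96.9 and 134 CPM at 96 HAI (log2 fold change 1.29 ± 0.34, edgeR adjusted p = 0.354, DESeq2 adjusted p = 0.0371). AOC4 (GLYMA02G11020) held 1.09, 4.12 and 0.278 CPM and then 6.87, 11.6 and 6.46 CPM (2.16 ± 0.90, edgeR adjusted p = 0.617, DESeq2 adjusted p = 0.273). FAD8 (GLYMA03G07570), a desaturase that supplies the fatty acid from which JA is made, held 243, 137 and 248 CPM and then 80.8, 30.5 and 30.8 CPM (-2.14 ± 0.50, edgeR adjusted p = 0.288, DESeq2 adjusted p = 0.00351). In mock leaves, AOS, AOC4 and FAD8 had log2 fold changes of -0.82 ± 0.42, 0.22 ± 0.84 and 0.87 ± 0.42. None of the 3 passed the edgeR test, while DESeq2 called AOS higher and FAD8 lower. The shares of JA genes apart between the times, 5.88% higher and 2.94% lower, were below the 6.74% and 7.26% over all tested genes. In signalling, JAZ12 (GLYMA09G09100) was at 65.9, 111 and 47.1 CPM and then at 73, 70.7 and 102 CPM (0.13 ± 0.37, edgeR adjusted p = 0.962), and its groups overlapped.

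SA genes gave no edgeR call either. Of 17 tested, edgeR called 0 (1 at an unadjusted p under 0.05) and DESeq2 called 0, with a median log2 fold change of 0.22. In every library 1 was higher and 1 lower, 5.88% each, below the 6.74% and 7.26% over all tested genes. PAL1 (GLYMA10G06600) was at 353, 2600 and 1170 CPM at 48 HAI and at 704, 1530 and 2820 CPM at 96 HAI (0.29 ± 0.85, edgeR adjusted p = 0.962). The SA regulators WRKY70 (GLYMA09G41050), at 121, 580 and 497 CPM and then 226, 434 and 402 CPM, and WRKY33 (GLYMA02G39870), at 70.3, 721 and 275 CPM and then 123, 215 and 527 CPM, had log2 fold changes of -0.17 ± 0.61 and -0.30 ± 0.89. Within each time these genes varied more than between the times. Named after their values were seen, the SA genes whose libraries were apart were PAD4 and EDS5. PAD4 (GLYMA04G38691) held 56.3, 98.4 and 65.6 CPM at 48 HAI and 102, 100 and 106 CPM at 96 HAI (0.48 ± 0.27, edgeR adjusted p = 0.737). EDS5 (GLYMA11G11970) encodes a transporter of the SA pathway in Arabidopsis, and it held 137, 121 and 134 CPM at 48 HAI and 84.5, 64 and 65.2 CPM at 96 HAI (-0.88 ± 0.22, edgeR adjusted p = 0.35). The DESeq2 adjusted p of EDS5 was 0.00918, and it was not called there because its change was under 1 in size. That of PAD4 was 0.717.

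Many defence genes, and genes of some other lists, shared an order among the libraries. In each of the 6 JA signalling genes tested, all of them JAZ genes, the highest library of 48 HAI was replicate 2 and the highest of 96 HAI was replicate 3. The same held for 61.8% of all JA genes, 76.5% of SA genes, 76.9% of WRKY genes and 70% of NAC genes, against 24.6% of all tested genes. Some lists outside these had similar shares, such as 66.7% of HSF genes (12 tested) and 61.9% of genes of the GRAS factor family (21 tested). The order was thus not particular to the defence lists. It held for 13.3% of C2C2 genes and for 0 of the 5 clock and CONSTANS-like genes. The median log2 range between the highest and the lowest library was 2.37 at 48 HAI and 1.66 at 96 HAI for the JAZ genes and 2.95 and 2 for the SA genes, against 0.91 and 0.75 over all tested genes. These libraries, replicate 2 of 48 HAI and replicate 3 of 96 HAI, are the pair with a rho of 0.89 described above. With these 2 libraries left out, an alternative added after seeing the data, edgeR called 0 genes (2059 at an unadjusted p under 0.05), and the libraries that remained were apart in 21% of tested genes higher at 96 HAI and 20% lower. With all libraries those shares were 6.74% and 7.26%. Groups of fewer libraries lie apart more easily, so shares with and without these libraries cannot be compared with each other. Beside the 21%, the JAZ, WRKY, SA and JA lists stood higher at 96 HAI in larger shares, and NAC genes in a share near it. All 6 JAZ genes (100%) were higher, with a median log2 fold change of 0.77 against 0.26 with all libraries. Of WRKY genes 23 of 51 were higher (45.1%) and 2 lower, and the median went from 0.20 to 0.77. Of SA genes 7 of 17 were higher (41.2%) and 2 lower (median 0.54), of JA genes 11 of 33 were higher (33.3%) and 2 lower (median 0.27), and of NAC genes 8 of 30 were higher (26.7%) and 1 lower (median 0.18). Since the libraries left out were picked for their high levels of these genes, the shares are a description with no test, and they depend on which libraries are used. Genes that share an order among the libraries are also not independent of each other, so a share such as that of the JAZ genes reflects a common pattern.

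JAZ1, JAZ2 and ICS1 show the pattern and were chosen after their values were seen. JAZ1 (GLYMA13G17180) held 4.82, 196 and 9.44 CPM at 48 HAI and 9.92, 26.6 and 159 CPM at 96 HAI (log2 fold change -0.10 ± 1.55, edgeR adjusted p = 0.992). JAZ2 (GLYMA01G41290) held 0.855, 83.5 and 3.05 CPM and then 8.88, 12.8 and 120 CPM (0.69 ± 1.70, edgeR adjusted p = 0.957). In both, 1 library per time stood far above the other two. ICS1 (GLYMA01G25690), an enzyme of SA synthesis, held 72.8, 3.48 and 63.2 CPM and then 29.6, 19.6 and 2.39 CPM (-1.43 ± 1.19, edgeR adjusted p = 0.839), so that the same libraries were its lowest.

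**Figure D4:**
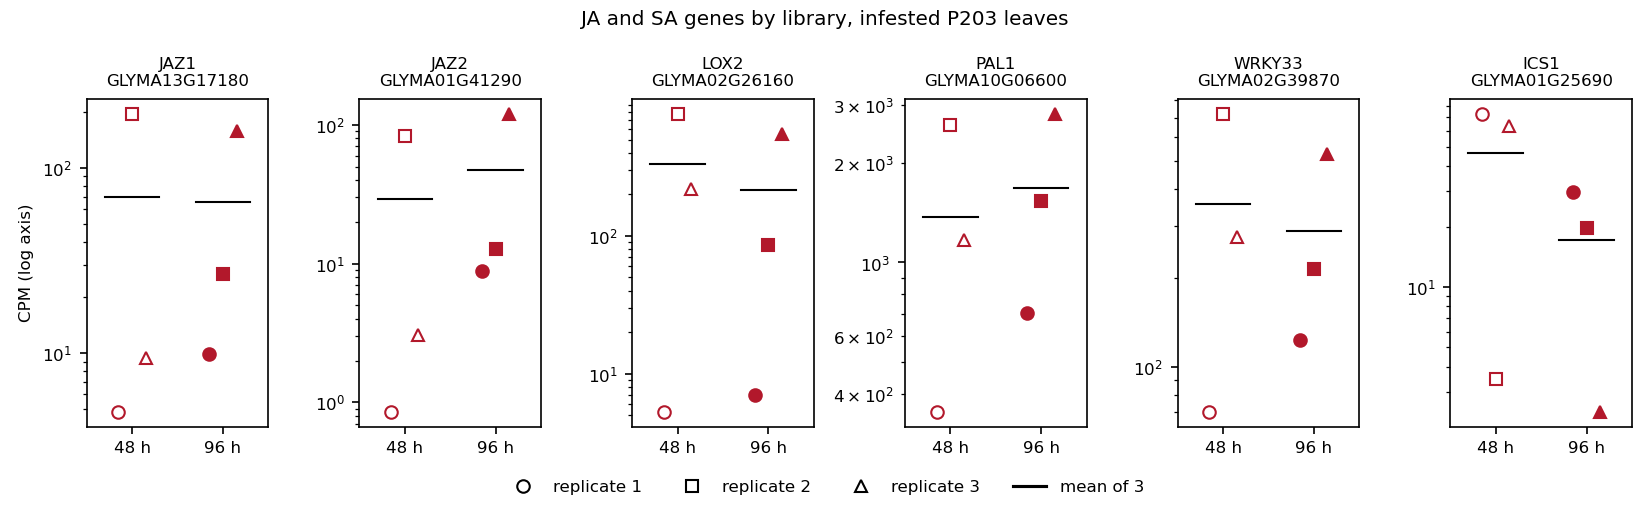
Normalised level (CPM, log axis) of 6 JA and SA genes in the infested P203 libraries at 48 and 96 HAI; points are libraries, symbols replicates and lines means of 3. Replicate 2 was highest at 48 HAI and replicate 3 highest at 96 HAI for JAZ1, JAZ2, LOX2, PAL1 and WRKY33, and these libraries were lowest for ICS1.

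Callose synthases (CalS), which lay down the callose that seals sieve plates, and catalases (CAT), which break down hydrogen peroxide, come from database predictions rather than from these libraries. Of 5 CalS genes tested edgeR and DESeq2 called 0, and 0 had an unadjusted p under 0.05. GLYMA10G44150 was at 74.2, 50.2 and 58.6 CPM at 48 HAI and at 81.5, 76.2 and 59.3 CPM at 96 HAI (log2 fold change 0.25 ± 0.25, edgeR adjusted p = 0.88). GLYMA06G44770 and GLYMA13G31310 had log2 fold changes of -0.04 ± 0.31 and 0.39 ± 0.31, with overlapping groups. Of 2 catalase genes tested, edgeR called 0 and DESeq2 called 1 lower, although both had an unadjusted p under 0.05. GLYMA06G02040 was at 977, 1390 and 1130 CPM at 48 HAI and at 657, 402 and 429 CPM at 96 HAI, with no overlap (-1.23 ± 0.38, edgeR adjusted p = 0.47, DESeq2 adjusted p = 0.0116). GLYMA04G01920 was at 646, 1780 and 1410 CPM and then at 665, 437 and 516 CPM (-1.24 ± 0.49, edgeR adjusted p = 0.596), where replicate 1 of 48 HAI was as low as the 96 HAI libraries.

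Of the TF genes taken to qPCR in the study, WRKY11 and MYB30 lie on chromosomes 1 to 13, and both overlapped between the times, while one on chromosome 14 was not analysed here. WRKY11 (GLYMA09G06980) was at 35.7, 105 and 29.4 CPM at 48 HAI and at 36.5, 61 and 85.2 CPM at 96 HAI (log2 fold change 0.10 ± 0.57, edgeR adjusted p = 0.979). MYB30 (GLYMA03G00890) was at 29.4, 21.8 and 6.11 CPM and then at 32.1, 23.3 and 27.6 CPM (0.53 ± 0.54, edgeR adjusted p = 0.88).

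Mock leaves of P203 give the change over the same hours without aphids. There edgeR called 934 of 23076 genes (4.05%), 426 higher (1.85%) and 508 lower (2.20%), against the 4 in infested leaves, 5803 had an unadjusted p under 0.05 (25.1%), and DESeq2 called 3333 (13.2% of the 25336 genes to which it gave an adjusted p). The counts do not test a difference, which was tested gene by gene over 12 libraries. The change over time differed between infested and mock leaves in 95 of 24242 genes (0.392%), more positive in infested leaves in 66 (0.272%) and more negative in 29 (0.120%), with 3510 at an unadjusted p under 0.05 (14.5%) and 1058 called by DESeq2 (4.26% of 24813). Of the 91 also tested in both fits of 6 libraries, the mock change was the larger in size in 78. The mock libraries of 96 HAI stand apart in the files: of loci assembled by the authors and present in either of 2 libraries, they shared 1.58% to 1.7% with the other P203 groups used here, whereas those groups shared 55.7% to 57.1% among each other. The part of this in the 934 and 95 genes was not tested. Leaving out 1 library at a time, the count in mock leaves ran from 6 (without mock replicate 1 of 96 HAI) to 1652 (without mock replicate 3 of 48 HAI), was 7 and 22 without replicate 2 of 96 HAI and of 48 HAI, and was 341 and 129 without replicate 1 of 48 HAI and replicate 3 of 96 HAI. The 95 genes became 20 (without mock replicate 2 of 48 HAI) to 52 with 11 of the 12 libraries left out in turn, and 84 without infested replicate 1 of 96 HAI.

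JA genes had a median log2 fold change of -0.68 in mock leaves (34 tested, edgeR 0 higher and 1 lower), SA genes -0.61 and WRKY genes -0.63. In infested leaves the medians were -0.08, 0.22 and 0.20. Mock libraries also varied widely within a time, as 2 genes chosen after their values were seen show. JAZ2 (GLYMA01G41290) held 207, 143 and 0.648 CPM in mock leaves at 48 HAI and 148, 135 and 10.6 CPM at 96 HAI. For ICS1 (GLYMA01G25690) mock replicate 3 was instead the highest, at 4.33, 6.2 and 81.9 CPM and then 6.64, 12.2 and 41 CPM. Over all tested genes in mock leaves the median was -0.06, and 17.6% were lower at 96 HAI in every library. That held for 9 JA genes (26.5%), 1 of 17 SA genes (5.88%) and 0 of 55 WRKY genes, and 1 JA, 0 SA and 1 WRKY gene were higher. Of the SA and WRKY genes, edgeR called 0 in mock leaves. No JA, SA, CalS or catalase gene was called in the test of the difference. The lipoxygenase LOX1 (GLYMA07G00900) was at 2990, 1070 and 1240 CPM in mock leaves at 48 HAI and at 281, 296 and 89.8 CPM at 96 HAI (-2.99 ± 0.70, edgeR adjusted p = 0.0666), and its change differed from that in infested leaves by 2.81 ± 1.27 (edgeR adjusted p = 0.346). Within the lists, 2 genes were called in that test. The C3H gene GLYMA07G04721 was at 3.28 to 5.83 CPM at 48 HAI and 4.13 to 4.72 CPM at 96 HAI in infested leaves, and in mock leaves went from 2.23, 2.81 and 2.59 CPM to 0.106, 0 and 0.148 CPM, which rest on very few counts (difference 4.93 ± 0.89, edgeR adjusted p = 0.0498). The B-box gene GLYMA13G33987 held 11.1, 18.2 and 13.3 CPM and then 13, 11.8 and 9.89 CPM in infested leaves, and rose in mock leaves from 7.67, 7.1 and 4.73 CPM to 40.1, 41.8 and 79.6 CPM (difference -3.35 ± 0.47, edgeR adjusted p = 0.0199).

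**Figure D5:**
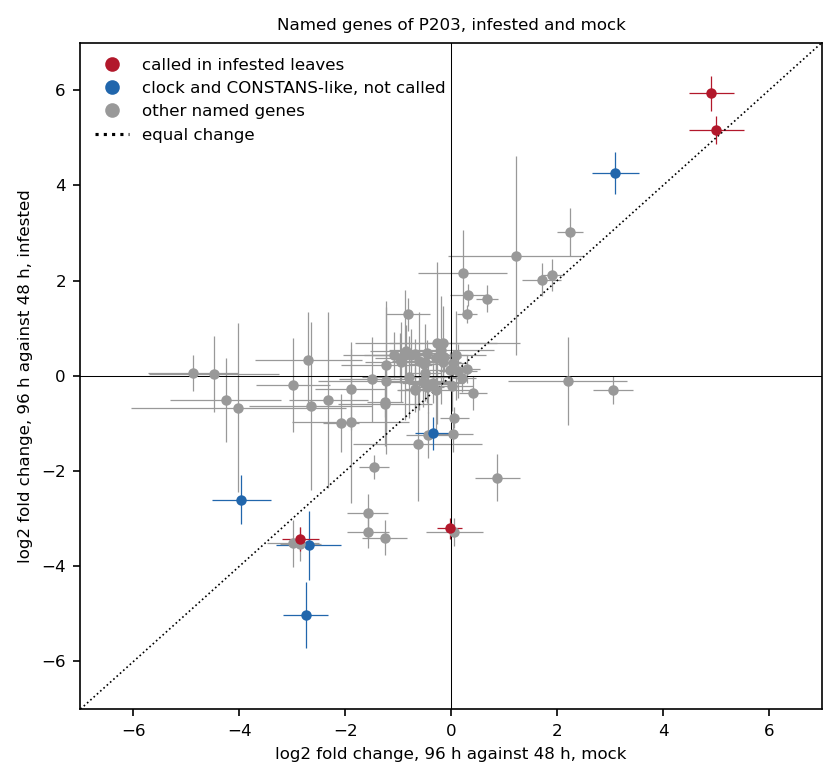
Log2 fold change of named P203 genes from 48 to 96 HAI in infested leaves (vertical) against mock leaves (horizontal); bars are standard errors from edgeR and the dotted line marks equal change. Of the 4 called genes (red), 3 lie in the quadrants of equal direction, and GLYMA11G35750 lies at -0.03 in mock and at -3.20 in infested leaves.

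Infested leaves of the other genotypes were compared over the same hours. The change in P203 differed from that in Dongnong47 in 0 of 23928 genes by edgeR (2701 at an unadjusted p under 0.05, or 11.3%, and 303 by DESeq2, or 1.26% of the 24118 genes it adjusted) and from that in P746 in 0 of 24230 (2281 at an unadjusted p under 0.05, or 9.41%, and 310 by DESeq2, or 7.72% of the 4015 genes it adjusted). LCL2 (GLYMA03G42260) had log2 fold changes of -3.62 ± 0.65 in Dongnong47 and -0.10 ± 1.72 in P746, and the P203 value differed from these by -1.41 ± 0.91 and -4.91 ± 2.12 (edgeR adjusted p = 0.579 and 0.518). GLYMA12G06406 had 2.44 ± 0.46 in Dongnong47 and -0.23 ± 1.62 in P746, and GLYMA11G35750 had -1.80 ± 0.50 and 0.25 ± 0.79. Neither gene was called in either test of the difference. WRKY genes had a median of -1.01 in Dongnong47 and -1.46 in P746, beside 0.20 in P203.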

How the data were processed

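RNA from caged leaf areas was sequenced as paired ends. Per the methods of the study, the authors mapped trimmed reads with HISAT2 to Glycine_max_v2.1 and counted reads per gene with StringTie, with TPM from RSEM, and tested with DESeq2. CASAVA 1.8 and Bowtie also stand in the submitters' processing notes. The strand setting is not given in the sources used here. The deposited values are the estimated counts per gene that the authors made in this way, not normalized further. Of them, 22% to 23.2% were not whole in the 6 libraries, and all were rounded. The other deposited measurements of the study (hormones, staining, qPCR) were not analysed here.

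Genes of chromosomes 1 to 13, read from the identifiers, were filtered with filterByExpr (minimum count 10, minimum total 15) and then scaled by TMM. The filter did not require that minimum count in every library. Tests used edgeR 4.0.16 in R 4.3.3, by its quasi-likelihood F test with Benjamini-Hochberg adjustment. The 2 groups were fitted alone, and differences between treatments or genotypes were tested as interactions over 12 libraries. The standard error was derived from the log2 fold change and its F statistic. TMM factors were 0.8005 to 0.9817 at 48 HAI and 1.087 to 1.163 at 96 HAI. Alternatives were DESeq2 1.42.0, RLE scaling, total counts, no filter, all loci, a replicate block, an 18-library fit, thinning, adjusted p alone and each library left out. Leaving out 2 libraries together, and the lists under total counts, were added after seeing the data. Libraries differed far beyond counting error (chi-square per gene of at least 88.1 for each pair). Marker genes of genotype lay over 2 log2 units apart between mock libraries of 24 HAI. Figures used Python 3.11.15 and matplotlib 3.10.9. Scripts were tested on simulated data.

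Of 48552 annotated identifiers, 0 matched the 59048 genes of the RefSeq table (Glycine_max_v4.0), so names are those of the study's lists. Named genes were the called genes and the 3 most abundant uncalled genes of each JA, SA, CalS and catalase list, up to 8 TF genes per direction with at least 5 CPM (by p where fewer than 4 were called), all clock and CONSTANS-like genes, the 2 called genes with the largest change per direction, and the genes taken to qPCR on these chromosomes. The comparison, the lists and the rule were chosen with earlier results of these data known.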

Additional observations from a re-analysis of the deposited data

Results flagged for a closer look

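The change from 48 to 96 HAI differed between infested and mock leaves of P203 in 95 genes by edgeR's interaction test over 12 libraries. Among the genes named, that test singled out GLYMA07G04721 (infested minus mock change of 4.93 on the log2 scale), GLYMA11G35750 (-3.18) and GLYMA13G33987 (-3.35). For GLYMA07G04721 and GLYMA13G33987 the values moved in mock leaves and hardly in infested leaves, whereas GLYMA11G35750 moved in infested leaves. The mock libraries of 96 HAI share few assembled loci with the others, and the part of this in these values was not tested.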

How the results depend on the processing

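With 3 libraries per time, whose spread was as wide as the distance between the times, counts of calls depended on the test. The 4 genes called between the times became 630 with DESeq2 over all genes, 269 in the fit of 18 P203 libraries, 20 over all loci, 8 without the filter, 7 under total counts and 0 with 48 HAI replicate 2 and 96 HAI replicate 3 left out together (2059 at an unadjusted p under 0.05, an alternative chosen after seeing the data). They remained 4 with RLE scaling, thinning or adjusted p alone, and were 0 with each library left out. Total counts moved the median log2 fold change of all genes from -0.01 to 0.29. The log2 fold changes of the 4 genes ranged from 4.96 to 5.45 (GLYMA09G26440), 5.73 to 6.30 (GLYMA12G06406), -3.27 to -2.90 (GLYMA11G35750) and -3.54 to -3.12 (GLYMA13G32970), with adjusted p of up to 0.343, 0.287, 0.371 and 0.371. The 934 calls in mock leaves became 3333 with DESeq2 and 6 to 1652 with 1 library left out. The 95 calls of the interaction became 1058 with DESeq2, 410 over all loci and 20 to 84 with 1 library left out. The tests against Dongnong47 and P746 gave 303 and 310 with DESeq2, 40 and 33 over all loci, and 0 with any library left out. Of the alternatives run for single named genes, 471 values stayed on their side of the threshold, 37 passed it anew, 32 lost it and 0 called values reversed. The 471 include genes that were not called and stayed so. All 32 losses fell on the 4 called genes. Each of these lost its call with the replicate block, with any 1 library left out and with the 2 libraries left out together.

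With the replicate number as a block, the calls were 0 (1558 at an unadjusted p under 0.05) between the times, 1941 in mock leaves and 28 for the interaction, and 0 against either genotype. In the infested P203 libraries the numbers do not pair 48 HAI with 96 HAI: deviations of same-numbered libraries correlated at 0.667, -0.314 and -0.309. Mock libraries and the other genotypes were not examined in this way. The cause of the differences in calls and in these correlations was not tested.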
